A study of Mus musculus with 24 samples.

Results

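The endoplasmic reticulum (ER) is where secreted and membrane proteins enter the secretory pathway, fold and are checked, and 37 genes that encode its folding, import and quality-control machinery are described here across the mouse mammary glands and mammary tumors of the series. They were picked by name as chaperones, disulfide enzymes, stress sensors and their transcription factors, degradation genes, translocon subunits and signal peptidase subunits, and all 37 were found by symbol among the 37991 genes of the table. All 37 also passed the filter on low counts that left 14918 genes for testing. Total RNA depleted of ribosomal RNA was sequenced from 24 libraries, 3 PyMT and 3 FVB female mice at each of weeks 6, 8, 10 and 12. PyMT females were heterozygous for the FVB/N-Tg(MMTV-PyVT)634Mul transgene, in which the mouse mammary tumor virus promoter, active mainly in mammary epithelium, drives the polyoma virus middle T antigen. FVB females of the same ages had no transgene and served as controls. The authors took the PyMT ages as hyperplasia (week 6), adenoma/MIN (mammary intraepithelial neoplasia, week 8), early carcinoma (week 10) and late carcinoma (week 12). FVB samples were normal gland at every age. Each library held whole tissue, so fewer cells of a type and less RNA per cell cannot be told apart in any value below.

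Proteins bound for secretion are threaded into the ER through the Sec61 channel, lose their signal peptide to the signal peptidase complex, and are folded there by chaperones led by Hspa5 (BiP) and by enzymes that form disulfide bonds. When unfolded protein builds up, the sensors Ern1 (IRE1), Atf6 and Eif2ak3 (PERK) start the unfolded protein response, in which Ern1 splices the Xbp1 transcript and the resulting factor, with cleaved Atf6, raises the transcription of chaperones through ER stress response elements in their promoters. The same machinery is large in cells that secrete much protein, such as milk-producing mammary epithelium, adipocytes that release adipokines, fibroblasts that release collagen, and plasma cells.

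The promoters were searched for elements that some of the members share. Chaperones are known to be raised through ER stress response elements, and members were picked as genes of that kind. The shares of these elements below are therefore not independent of the choice of members. The window from 250 bases before to 50 bases after the RefSeq start site (GRCm38.p6) was at hand for 31 members, and all 31 windows were placed on mm9 by exact match. Windows of Atf6, Hyou1, Manf, Sec61a1, Spcs3 and Ssr2 were not used here. The ER stress response element ERSE, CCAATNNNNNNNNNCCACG on either strand, was in 9 of the 31 windows (29.0%), against 39 of all 32851 RefSeq windows (0.119%). ERSE-II, which is ATTGG and CCACG with 1 base between them on either strand, was in the windows of Herpud1 and Dnajb11, so in 2 of 31 (6.45%) against 12 of 32851 (0.0365%), and no window of a member held both elements. The single boxes were common everywhere, with CCAAT in 24 member windows (77.4%) and 37.4% of all windows, and CCACG in 24 member windows (77.4%) and 32.8% of all. The Xbp1 site TGACGTGG was in 0 of 31 member windows and in 222 of all windows (0.676%). The 9 windows with ERSE belonged to Hspa5, Hsp90b1, Calr, Canx, Dnajc3, Creld2, Pdia6, Ero1lb and Syvn1, and that of Hsp90b1 held the element 2 times, once on each strand. Stretches of 7 of these windows and of that of Herpud1 are printed 5′ to 3′ in the direction of transcription, with the boxes of the element in capitals, to show the arrangement in genes that rose in PyMT (the first 6) and in a pair that did not pass the test, Syvn1 and Herpud1.
Hspa5: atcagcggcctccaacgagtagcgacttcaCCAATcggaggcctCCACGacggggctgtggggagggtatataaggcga
Calr: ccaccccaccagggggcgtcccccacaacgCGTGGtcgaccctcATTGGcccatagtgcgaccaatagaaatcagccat
Canx: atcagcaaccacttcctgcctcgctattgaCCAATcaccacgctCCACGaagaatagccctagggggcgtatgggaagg
Creld2: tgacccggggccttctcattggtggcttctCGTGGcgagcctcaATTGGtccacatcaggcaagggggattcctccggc
Pdia6: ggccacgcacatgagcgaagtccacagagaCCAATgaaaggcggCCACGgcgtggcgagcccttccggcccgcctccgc
Ero1lb: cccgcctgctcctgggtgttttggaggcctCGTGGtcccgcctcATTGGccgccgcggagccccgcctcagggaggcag
Syvn1: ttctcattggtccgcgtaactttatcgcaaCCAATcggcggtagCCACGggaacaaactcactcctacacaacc
Herpud1: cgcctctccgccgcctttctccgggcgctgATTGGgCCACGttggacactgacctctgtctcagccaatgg
On mm9 these stretches lie before the RefSeq start sites, with last bases from -153 (Ero1lb) to -1 (Syvn1) counted from the start. That of Hspa5 is chr2:34627515-34627593 on the plus strand, that of Calr chr8:87370944-87371022 on the minus strand and that of Canx chr11:50139272-50139350 on the minus strand. The stretch of Creld2 is chr15:88649920-88649998, that of Pdia6 chr12:17273267-17273345, that of Ero1lb chr13:12657919-12657997, that of Syvn1 chr19:6046502-6046575 and that of Herpud1 chr8:96910247-96910317, all on the plus strand. In Calr, Creld2 and Ero1lb the element reads on the opposite strand, so that CGTGG comes before ATTGG. A match of letters describes the window only, and binding was not measured. Of the 11 members with ERSE or ERSE-II in their window, 9 were higher and 0 lower in PyMT over the 4 ages described next, with a median log2 fold change of 0.86. Of the 20 with neither, 14 were higher and 1 lower, with a median of 0.76.

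Compared over the mean of the 4 ages, 28 of the 37 members were higher in PyMT than in FVB, 2 were lower and 7 did not pass, by edgeR's quasi-likelihood test at an adjusted p under 0.05. Among all 14918 genes tested, 23.6% were higher and 27.4% lower in this comparison. With a fold change above 2 asked for as well, 12 members were higher in place of 28 and 0 were lower, against 8.7% of all genes tested higher. On the log2 scale the median of the members was 0.86 and that of all genes tested -0.03. The rise took in the chaperones (10 of 11), the disulfide enzymes (7 of 7), the translocon (6 of 7) and the signal peptidase (3 of 3), and it left out most of the degradation genes (1 of 4 higher) and of the sensors and factors (Xbp1 higher, Ern1 and Atf6 lower, of 5). In 17 members all 12 PyMT libraries were above all 12 FVB libraries, which held for 4.67% of the genes tested, and in 0 members were all PyMT libraries below all FVB libraries, against 7.22% of the genes tested.

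**Figure D1:**
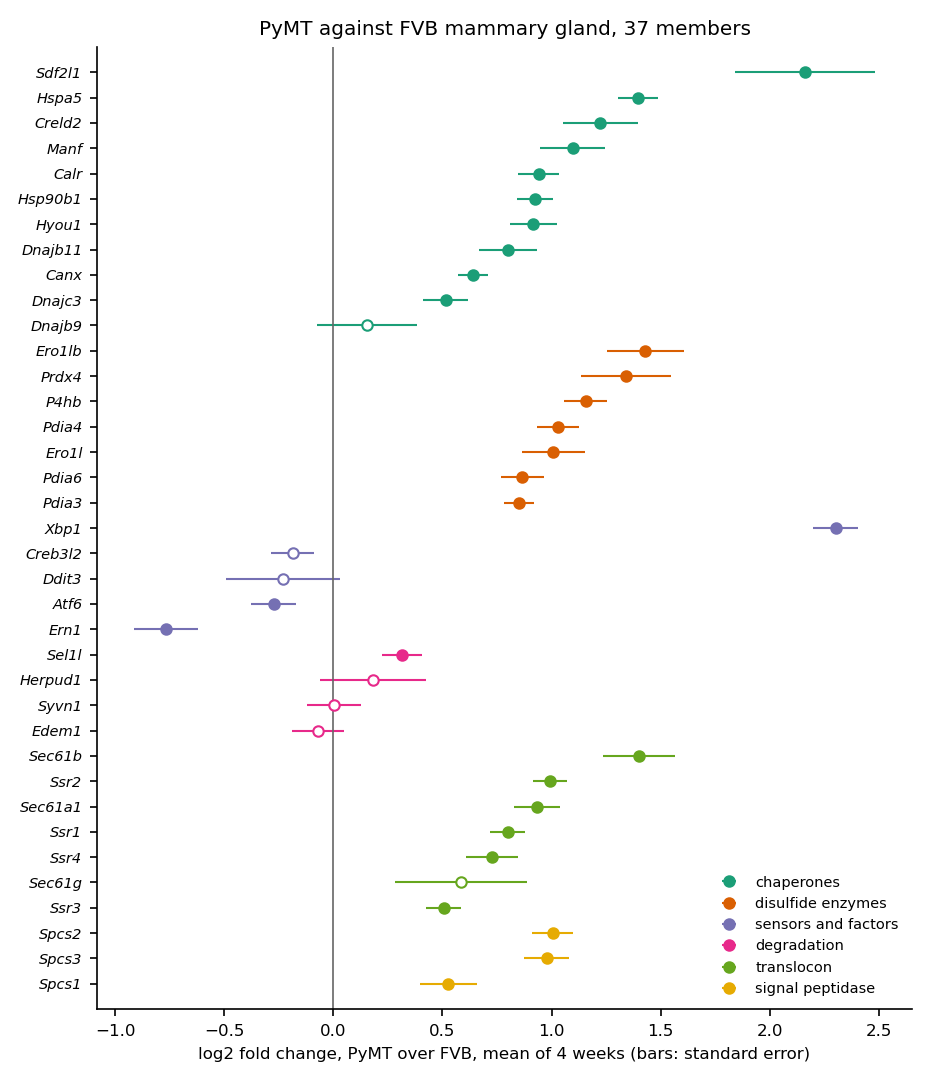
Log2 fold change of PyMT over FVB, mean of 4 weeks, for the 37 members grouped by role, from the edgeR fit of 24 libraries in 8 groups. Bars are standard errors, filled points pass an adjusted p of 0.05 and open points do not; Xbp1 (2.30) and Sdf2l1 (2.16) lie farthest to the right and Ern1 (-0.77) farthest to the left.

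Levels between genes were compared as normalized counts per kilobase of exon (counts over the library's size factor and the gene's exon length). The length was that of all annotated exons of the gene merged. It can exceed that of a transcript, as for Sec61b with 1271 bases against 564 in its longest protein-coding transcript, so ranks are less certain. In PyMT the highest median levels were those of Xbp1 (2618), Calr (2375), P4hb (2327) and Hspa5 (1856), and in FVB those of Calr (1231), P4hb (1092), Hsp90b1 (851) and Canx (772). Xbp1 was thus first of 37 in PyMT and 8th in FVB, where its median was 521. The lowest of the 37 in both was Sec61g, at 29.4 in PyMT and 16.4 in FVB.

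Xbp1, the factor made active by Ern1 and needed for secretory cells to build their ER, had the largest fold change of the members over the mean of the 4 ages, and was exceeded by Sdf2l1 at weeks 8 and 10. Its normalized counts in PyMT were 8999, 7184 and 9329 at week 6, 7730, 12312 and 6263 at week 8, 8925, 10452 and 8769 at week 10, and 7992, 8239 and 8232 at week 12. In FVB they were 1641, 1564 and 1443 at week 6, 1728, 1963 and 1401 at week 8, 1749, 1587 and 1659 at week 10, and 1988, 2402 and 2455 at week 12. The lowest PyMT library was above the highest FVB library by a wide margin. The log2 fold change of Xbp1 was 2.30 ± 0.10 (SE, 12 PyMT and 12 FVB mice; edgeR adjusted p = 1.2e-12). It passed at each age, at 2.45, 2.37, 2.54 and 1.89 on the log2 scale for weeks 6, 8, 10 and 12. These counts do not separate the spliced from the unspliced transcript.

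Ern1, the sensor and ribonuclease that splices Xbp1, went the other way. Its normalized counts in PyMT were 579, 279 and 431 at week 6, 464, 398 and 430 at week 8, 462, 551 and 482 at week 10, and 500, 559 and 658 at week 12. In FVB they were 780, 624 and 648 at week 6, 927, 837 and 607 at week 8, 497, 647 and 1130 at week 10, and 728, 1568 and 1120 at week 12. All PyMT libraries were below all FVB libraries of the same age at 3 of the 4 ages, and the groups overlapped at week 10. Over the 4 ages the log2 fold change was -0.77 ± 0.15 (SE, 12 and 12 mice; edgeR adjusted p = 0.00017). It passed at week 8 (-0.86) and week 12 (-0.94), and each of these single-age calls was lost in 5 of 6 fits that left out 1 library.

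Atf6, the sensor that becomes a transcription factor after cleavage in the Golgi, was slightly lower in PyMT. Its normalized counts in PyMT were 550, 582 and 800 at week 6, 597, 692 and 655 at week 8, 747, 760 and 632 at week 10, and 837, 701 and 653 at week 12. In FVB they were 953, 708 and 651 at week 6, 1109, 908 and 690 at week 8, 883, 655 and 628 at week 10, and 1001, 823 and 1048 at week 12. The groups overlapped at every age. Its log2 fold change was -0.27 ± 0.10 (SE; edgeR adjusted p = 0.033). It missed the threshold in 17 of 31 alternative fits, among them scaling by library size alone, which turned it to 0.03.

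Creb3l2, an ER-bound factor of the same cleaved type, did not pass. In PyMT it had normalized counts of 1002, 711 and 787 at week 6, 731, 894 and 730 at week 8, 854, 624 and 931 at week 10, and 675, 884 and 750 at week 12, and in FVB of 799, 818 and 1031, of 975, 1283 and 1014, of 857, 967 and 662, and of 799, 863 and 999. The PyMT libraries were all below the FVB libraries at week 8 alone. Its log2 fold change was -0.19 ± 0.10 (SE; edgeR adjusted p = 0.12). Ddit3 (CHOP), the factor most often used as a sign of severe ER stress, had low and scattered counts. They were 82.8, 20.9 and 67.5 in PyMT at week 6, 76.3, 176 and 81.2 at week 8, 87.2, 188 and 174 at week 10, and 76.1, 110 and 143 at week 12. In FVB they were 137, 57.8 and 72.2 at week 6, 116, 76.8 and 101 at week 8, 155, 110 and 271 at week 10, and 98.2, 192 and 109 at week 12. The groups overlapped at every age, and the log2 fold change was -0.23 ± 0.26 (SE; edgeR adjusted p = 0.49).

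**Figure D2:**
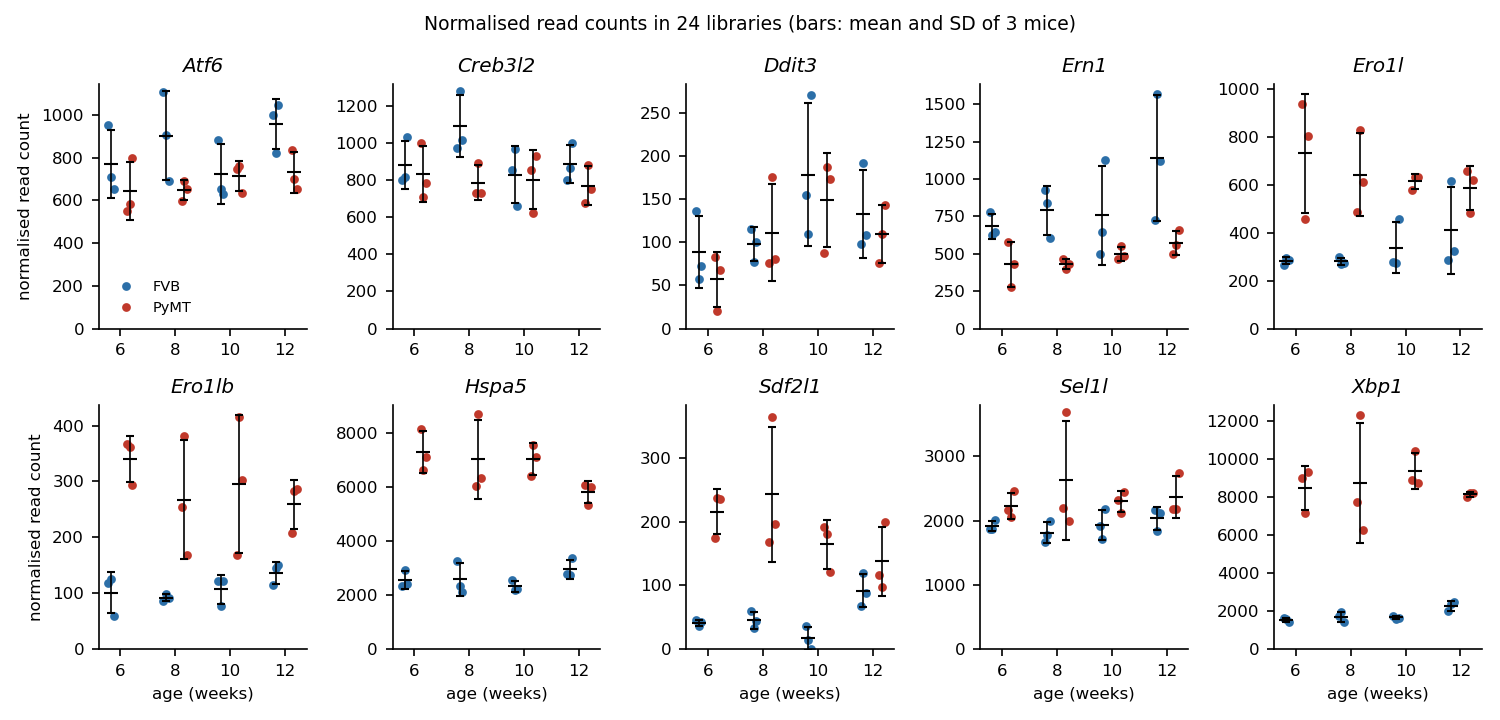
Normalized counts of 10 members in each of the 24 libraries by age in weeks, FVB in blue and PyMT in red, with the mean and SD of 3 mice in black. Xbp1, Hspa5 and Ero1lb show no overlap between the genotypes at any age, while Atf6, Creb3l2 and Ddit3 overlap at most ages; the FVB library at 0 for Sdf2l1 is replicate 3 of week 10.

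Among the chaperones, Hspa5, the Hsp70 of the ER lumen and the main readout of its folding load, had normalized counts in PyMT of 8131, 6634 and 7083 at week 6, 6030, 8680 and 6332 at week 8, 6410, 7556 and 7097 at week 10, and 6069, 5341 and 5981 at week 12. In FVB it had 2340, 2932 and 2391 at week 6, 3261, 2348 and 2117 at week 8, 2553, 2174 and 2236 at week 10, and 2756, 2736 and 3353 at week 12. The genotypes did not overlap. Hspa5 had a log2 fold change of 1.40 ± 0.09 (SE; edgeR adjusted p = 1.2e-10), which passed at each age, from 1.02 at week 12 to 1.65 at week 10.

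Sdf2l1, a partner of the Hspa5 cycle that is strongly induced in ER stress, had the largest fold change after Xbp1 over the mean of the 4 ages, at a far lower level. In PyMT it had 175, 238 and 235 normalized counts at week 6, 169, 365 and 196 at week 8, 192, 181 and 121 at week 10, and 116, 98.3 and 199 at week 12. In FVB it had 45.2, 36.3 and 43.2 at week 6, 59.3, 32.6 and 44.1 at week 8, 35.9, 14.0 and 0.0 at week 10, and 67.3, 120 and 88.6 at week 12. The genotypes were apart at weeks 6, 8 and 10 and overlapped at week 12. Over the 4 ages its log2 fold change was 2.16 ± 0.32 (SE; edgeR adjusted p = 9.7e-06), and it passed at week 6 (2.37) and week 8 (2.42). At week 10 it was 3.28 ± 1.09 with an adjusted p of 0.081 in edgeR, and 2.74 with an adjusted p of 0.0132 without the FVB library at 0. At week 12 it was 0.64 and did not pass.

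The other chaperones that rose were Creld2 (log2 fold change 1.22) and Manf (1.10), secreted ER stress proteins, Calr (0.94) and Canx (0.64), the lectin chaperones of glycoproteins, Hsp90b1 (0.92), the Hsp90 of the ER, Hyou1 (0.92), an exchange factor of Hspa5, and its J-domain partners Dnajb11 (0.80) and Dnajc3 (0.51). Calr ran from 5803 to 8888 normalized counts in PyMT, with a median of 6839, and from 2946 to 4845 in FVB, with a median of 3544. Hsp90b1 ran from 5430 to 7806 in PyMT (median 6342) and from 2635 to 4095 in FVB (median 3432). Both were without overlap between the genotypes, as were Canx, Hyou1 and Manf. For Manf the gap was slight, with the lowest PyMT library at 447.4 and the highest FVB library at 446.1. Dnajb9, a J-domain partner that recruits Hspa5 to Ern1 and is itself a target of Xbp1, was the chaperone that did not pass. It ran from 147 to 410 in PyMT (median 256) and from 125 to 465 in FVB (median 235), and its log2 fold change was 0.15 ± 0.23 (SE; edgeR adjusted p = 0.61).

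All 7 disulfide genes rose. Ero1l and Ero1lb (now named Ero1a and Ero1b) are the oxidases that recharge protein disulfide isomerases, the first broadly expressed and the second known mostly from secretory cells. Ero1lb had normalized counts in PyMT of 367, 361 and 293 at week 6, 254, 381 and 168 at week 8, 168, 415 and 302 at week 10, and 208, 283 and 286 at week 12. In FVB it had 118, 126 and 59.0 at week 6, 85.8, 98.9 and 91.5 at week 8, 121, 77.2 and 122 at week 10, and 114, 145 and 150 at week 12. The genotypes did not overlap, and the log2 fold change was 1.43 ± 0.18 (SE; edgeR adjusted p = 8.7e-07). It passed at each age, at 1.73, 1.54, 1.51 and 0.97 for weeks 6, 8, 10 and 12, although leaving out 1 library lost the call in 1, 5, 4 and 4 of 6 fits at these ages. Ero1l had 940, 457 and 804 in PyMT at week 6, 488, 831 and 611 at week 8, 580, 634 and 632 at week 10, and 659, 483 and 621 at week 12. In FVB it had 267, 296 and 285 at week 6, 298, 270 and 273 at week 8, 278, 274 and 460 at week 10, and 287, 618 and 325 at week 12. A single FVB library, replicate 2 of week 12, reached into the PyMT range at its own age. For Ero1l the log2 fold change was 1.01 ± 0.14 (SE; edgeR adjusted p = 5.7e-06). It passed at weeks 6 (1.38), 8 (1.20) and 10 (0.93), calls lost in 3, 3 and 5 of 6 fits without 1 library, and at week 12 it was 0.57 and did not pass, or 0.95 with an adjusted p of 0.012 without that FVB library.

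Prdx4, the peroxidase that uses the hydrogen peroxide made by the Ero1 enzymes, rose by 1.34 on the log2 scale, and its range was 269 to 627 normalized counts in PyMT and 74.0 to 344 in FVB. The isomerases P4hb (1.16), Pdia4 (1.03), Pdia6 (0.86) and Pdia3 (0.85) rose without overlap between the genotypes. P4hb had the highest counts of these 4, with medians of 6656 in PyMT and 3125 in FVB.

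Of the degradation genes, which pull misfolded proteins back to the cytosol, Sel1l alone rose, and by little. It had normalized counts in PyMT of 2162, 2063 and 2457 at week 6, 2192, 3697 and 1993 at week 8, 2327, 2123 and 2448 at week 10, and 2186, 2174 and 2738 at week 12. In FVB it had 1871, 1873 and 2005 at week 6, 1668, 1778 and 1999 at week 8, 1909, 1718 and 2186 at week 10, and 2166, 1836 and 2120 at week 12. The PyMT libraries were all above the FVB libraries at weeks 6 and 12. Its log2 fold change was 0.32 ± 0.09 (SE; edgeR adjusted p = 0.0067), and it passed at no single age. Syvn1 (Hrd1), the ubiquitin ligase that works with Sel1l, had medians of 439 in PyMT and 431 in FVB and a log2 fold change of 0.00, whose sign changed with the scaling. Herpud1 (0.18), the adaptor of that ligase, and Edem1 (-0.07), which marks glycoproteins for degradation, did not pass either. Syvn1 and Herpud1 are among the genes whose promoter stretches hold an element.

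Of the translocon genes, the Sec61 channel subunits Sec61b (log2 fold change 1.40) and Sec61a1 (0.93) rose, as did Ssr2 (0.99), Ssr1 (0.80), Ssr4 (0.73) and Ssr3 (0.50), subunits of the translocon-associated protein complex. Sec61b ran from 233 to 452 normalized counts in PyMT and from 56.3 to 189 in FVB without overlap. Sec61g, the smallest Sec61 subunit, had at most 98.9 normalized counts in any library, and its log2 fold change of 0.58 ± 0.30 did not pass (SE; edgeR adjusted p = 0.11), while it passed at week 12 alone (1.81). The signal peptidase subunits Spcs2 (1.00), Spcs3 (0.98) and Spcs1 (0.53) rose, the first without overlap. A near copy elsewhere in mm9 (at least 90% identity over at least 50% of the transcript) makes the counts of 6 members less certain. These are Sec61b, with copies of 98.7%, 96.3% and 95.7% identity on chromosomes 13, 15 and 5, Ero1l (99.7%), Ero1lb (97.4%), Dnajb9 (94.4%), Spcs2 (92.5%) and Spcs1 (92.4%). Spcs1 also shares 17.9% of its exonic bases with Glt8d1 and Hsp90b1 10.3% with 1810014B01Rik, both on the opposite strand, and whether the counting used strand was not given in the sources used here.

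The 4 ages were then compared one by one, each with 3 mice against 3. At week 6, 21 members were higher and 0 lower, against 4.82% and 7.06% of all genes tested. At week 8, 19 were higher and 1 lower, against 4.34% and 6.86%. At week 10, 21 were higher and 0 lower, against 6.27% and 9.91%. At week 12, 21 were higher and 1 lower, against 12.5% and 15.3%. By the stricter rule of a fold change above 2 as well, 13, 16, 13 and 7 members were higher at weeks 6, 8, 10 and 12, against 3.58%, 3.57%, 4.83% and 7.75% of all genes tested. The members' median log2 fold change was 0.92, 0.93, 0.91 and 0.63 in that order of ages, and the medians over all genes tested lay between -0.08 and 0.01. The 14 members higher at all 4 ages were Xbp1, Hspa5, Creld2, Calr, Hsp90b1, Hyou1, P4hb, Pdia3, Pdia4, Ero1lb, Sec61a1, Sec61b, Ssr2 and Spcs3. Manf, Canx, Ero1l, Pdia6, Ssr1 and Spcs2 were higher at 3 ages, Sdf2l1, Dnajb11 and Prdx4 at 2, and Ssr4 and Sec61g at week 12 alone. Of the 12 members higher at no single age, Dnajc3, Ssr3, Spcs1 and Sel1l rose in the mean of the ages. By role, 7 or 8 of the 11 chaperones, 6 of the 7 disulfide genes, 4 or 5 of the 7 translocon genes, 1 or 2 of the 3 signal peptidase genes and 0 of the 4 degradation genes were higher at an age, and Xbp1 was the only sensor or factor that was. Single-age counts rested on few mice. They dropped to 8 at week 6 without PyMT replicate 1, to 4 at week 8 without FVB replicate 2, to 8 at week 10 without PyMT replicate 1 or 2, and to 11 at week 12 without PyMT replicate 2, while the count over the mean of the 4 ages stayed at 29 or 30 whichever library was left out.

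**Figure D3:**
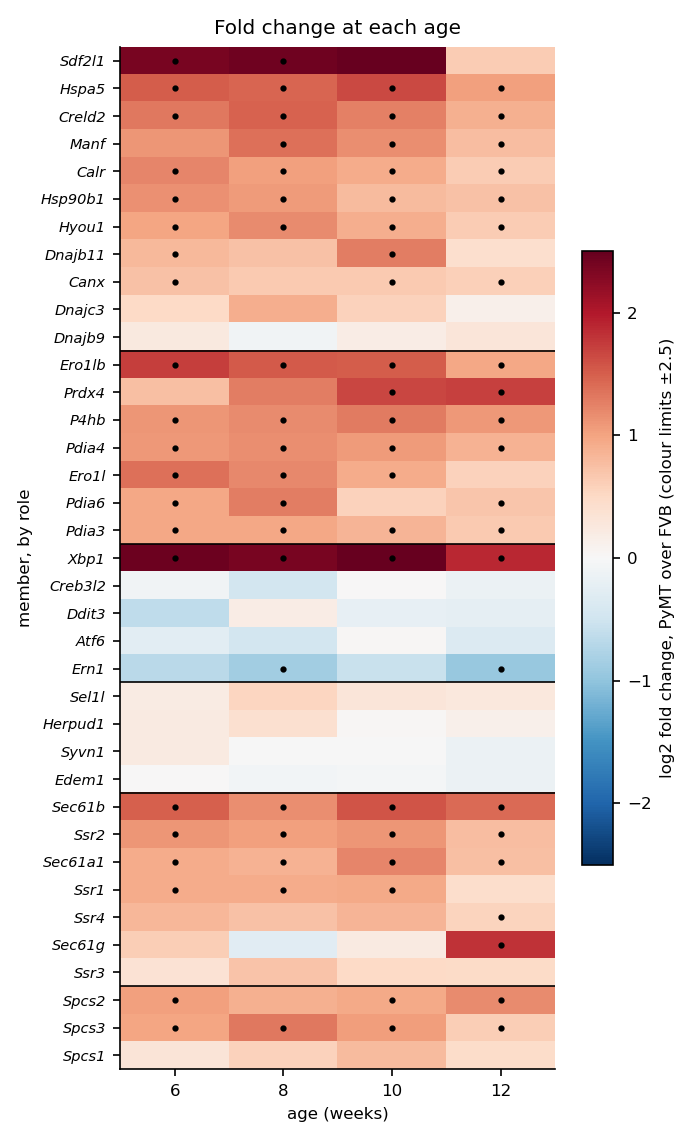
Log2 fold change of PyMT over FVB for each member (rows, grouped by role as in the plot of fold changes) at weeks 6, 8, 10 and 12 (columns), red for higher and blue for lower in PyMT. Dots mark an adjusted p under 0.05 at that age; 14 members, Xbp1 and Hspa5 among them, carry 4 dots, and Sdf2l1 at week 10 (3.28) lies beyond the colour limits.

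Within each genotype, the later ages (weeks 10 and 12) were compared with the earlier ones (weeks 6 and 8). In PyMT 0 members passed, against 0% of all genes tested, by edgeR, DESeq2 and limma voom alike, and at an unadjusted p under 0.05 the 3 tools gave 1, 3 and 6 members. The member at an unadjusted p under 0.05 in edgeR was Spcs3 (-0.34). In FVB 0 members passed by the same 3 tools, against 0.0134% of all genes tested in edgeR, and the unadjusted counts were 4, 4 and 5. In edgeR these 4 were Creld2 (0.53), Dnajc3 (0.33), Pdia6 (0.30) and Prdx4 (-0.64). The difference between the PyMT change and the FVB change with age passed for 0 members by the 3 tools, against 0% of all genes tested in edgeR, with unadjusted counts of 2, 4 and 3, and the 2 in edgeR were Pdia6 (-0.50) and Hsp90b1 (-0.36). The fold change between genotypes was smallest at week 12 for 21 of the 28 members that rose. This order is a description, and the share of all genes tested with the same order was not computed. The contrasts above pooled week 12 with week 10, so they cannot decide on it, and week 12 against the other ages was not tested. The median difference between the PyMT and FVB changes with age was -0.15 on the log2 scale over the members and 0.02 over all genes tested.

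Other genes of the secretory pathway were counted in the comparison over the mean of the 4 ages. Of 102 genes listed in 7 groups, 100 were tested, 54 were higher, 21 lower and 25 did not pass, and their median was 0.33 on the log2 scale. Among all genes tested 23.6% were higher and 27.4% lower, so the 21 lower were not more than that share. The counts of each list below stand against the same shares. All 10 subunits of the oligosaccharyltransferase list, which adds N-glycans to proteins in the ER, rose, with a median of 0.75, led by Ostc (1.21) and Rpn1 (1.08). Of 14 genes for targeting and signal cleavage, 10 rose, led by the signal peptidase catalytic subunit Sec11c (2.00) and the translocon partner Tram1 (1.38), and 2 fell, Tram2 (-0.72) and Sec61a2 (-0.45). Of 19 other folding genes, 13 rose, led by the prolyl isomerase Fkbp11 (1.68) and the glucosidase Mogs (1.29), and Uggt2 (-1.60), a glycoprotein folding sensor, fell. Of 18 genes for traffic between ER and Golgi, 9 rose, led by the COPII coat subunit Sec23b (1.22) and the cargo receptor Surf4 (1.16). In the same list 4 fell, led by Kdelr3 (-1.12), a receptor that returns proteins to the ER, and Sec23a (-0.67). Of 13 other degradation genes 6 rose and 2 fell, and the derlins, which take part in pulling proteins out of the ER, moved apart, with Derl3 at 5.46 and Derl1 at -1.04. Edem3 (0.74), a mannosidase, was the next highest of this list. At single ages the highest value of the list was 3.33, 4.71, 10.38 and 3.47 at weeks 6, 8, 10 and 12. The size of the mean for Derl3 is therefore uncertain. Of 12 other stress factors 5 rose, led by Atf3 (1.47) and Trib3 (1.00), and Chac1 (-2.81), a glutathione-degrading target of Atf4, fell. The procollagen folding genes went against the rest, with 11 of 14 lower, a median of -1.22, the lowest values in Fkbp9 (-1.77) and the prolyl hydroxylase P4ha2 (-1.64), and 1 higher, Leprel1 (1.24). P4hb, a member that rose, is also the beta subunit of the prolyl hydroxylases.

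**Figure D4:**
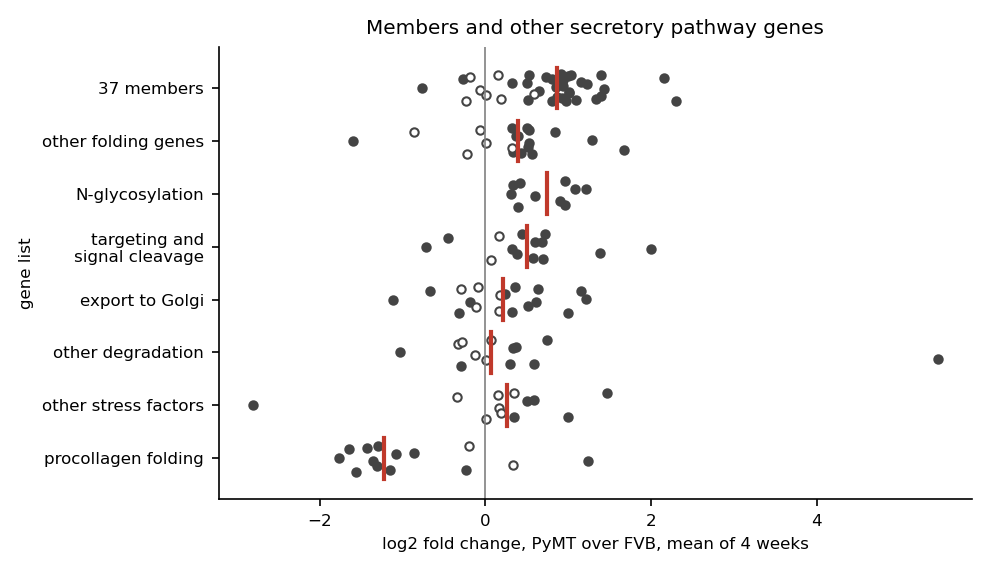
Log2 fold change of PyMT over FVB, mean of 4 weeks, of the 37 members and of 7 other lists of secretory pathway genes, 1 point per gene, filled where the adjusted p is under 0.05, with the list's median as a red bar. The median is 0.86 for the members, 0.75 for N-glycosylation and -1.22 for procollagen folding. The list marked export to Golgi holds genes for traffic in both directions between ER and Golgi.

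Most epithelial markers and all tested milk genes were higher in PyMT, as most members were, and markers of several other cell types were lower. Of 10 epithelial markers, 7 were higher in PyMT, led by Epcam (2.04) and Cldn7 (1.85), 1 was lower (Krt19) and 2 did not pass, and the sum of the 10 ran from 21000 to 39790 normalized counts in PyMT and from 4632 to 20100 in FVB. All 8 tested milk genes were higher, and their summed level, Glycam1 included, ran from 44610 to 138600 in PyMT and from 1862 to 11630 in FVB, with all 3 FVB libraries of week 12 (7061 to 11630) above those of the other ages. Wap was at 0 in 6 of 12 FVB libraries. All 9 adipocyte, 8 endothelial, 8 fibroblast and 10 skeletal muscle markers were lower. Adipocyte sums ran from 1243 to 17180 in PyMT and from 55050 to 148400 in FVB, fibroblast sums from 21640 to 45360 and from 51850 to 188800, and endothelial sums from 769 to 2065 and from 4781 to 8623. Skeletal muscle sums overlapped, from 0 to 35510 in PyMT (median 355) and from 139 to 629400 in FVB (median 1364). At single ages 0, 3, 0 and 9 of the 10 muscle markers passed as lower at weeks 6, 8, 10 and 12. Macrophage sums overlapped too (3301 to 6524 and 3275 to 7172), with 1 of 8 markers higher, 2 lower and 5 not passing. The plasma cell markers, whose cells are rich in Xbp1 and Derl3, had sums of 84.4 to 465 (PyMT) and of 331 to 1220 (FVB). Among the 7 plasma cell markers 5 were tested, 0 were higher and 2 lower, and Tnfrsf17 was at 0 in 11 of 12 PyMT libraries and in 7 of 12 FVB libraries. The part of the epithelial, milk and other markers in the members' rise was not tested.

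The levels of the members were also set beside those of the epithelial markers in the same library. The mean log2 level of the 37 members, log2(normalized count + 1), ran from 9.81 to 10.33 over the PyMT libraries and from 9.12 to 9.51 over the FVB libraries, and that of the 10 epithelial markers from 10.29 to 11.08 and from 8.31 to 10.16. Within FVB the members stayed in a narrower band than the epithelial markers, and neither measure overlapped between the genotypes. Averaged over the ages, the epithelial markers were 1.22 higher in PyMT on this scale. The members' difference relative to them was negative in 31 of 37 and positive in 6, with a median of -0.36. The same marker mean was subtracted from all members of a library, so the 31 are not separate observations. Between replicates of a group, the median relative level of a library had an SD of 0.55. That is a spread of single libraries and not the uncertainty of the -0.36, which was not tested. After the subtraction 3 of the 37 members were without overlap between the genotypes. These were Ern1 (-1.98), Atf6 (-1.50) and Creb3l2 (-1.42), all lower in PyMT. The share of all genes tested without overlap after this subtraction was not computed. Taken library by library, the median of the members minus the mean of the epithelial markers averaged -0.55, -0.84, -0.72 and -0.82 in PyMT at weeks 6, 8, 10 and 12 (SD 0.29, 0.25, 0.12 and 0.20, n = 3 each). In FVB it averaged -0.10, 0.32, 0.44 and 0.32 at these ages (SD 0.52, 1.04, 0.68 and 0.66, n = 3 each), so the FVB libraries of an age differed more among themselves than the PyMT libraries did. With Krt8 and Krt18 alone as the markers the median of the members' differences was -0.82.

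**Figure D5:**
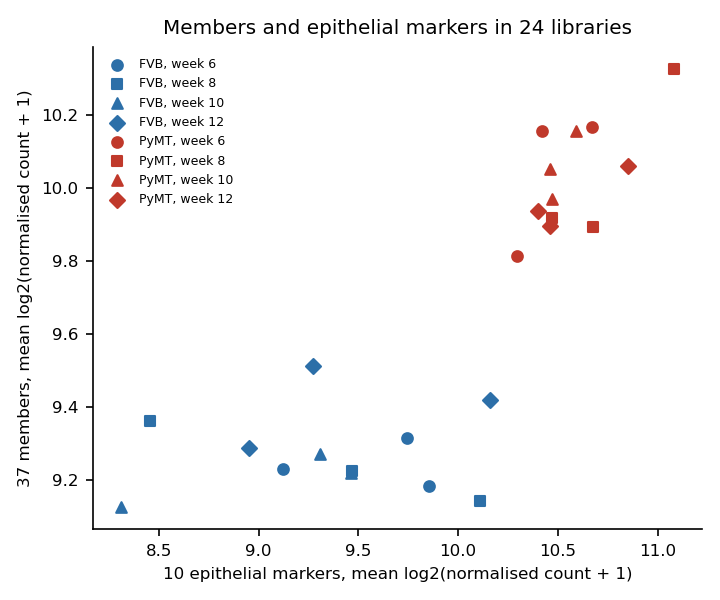
Mean log2(normalized count + 1) of the 37 members against that of 10 epithelial markers in each of the 24 libraries, FVB in blue and PyMT in red, with a shape for each age. The FVB libraries spread from 8.31 to 10.16 along the epithelial axis and from 9.12 to 9.51 along the members' axis, and all PyMT libraries lie above and to the right of them.

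The total count per library ran from 6969375 to 13516601. Among 3799 genes whose median CPM lay between 10 and 30, FVB week 10 replicate 3 lacked any count for 4.40% and PyMT week 8 replicate 2 for 2.87%, more than in any other library (0% to 1.92%), so low counts there are less certain, and the value of 0 for Sdf2l1 is in the first of them. Without these 2 libraries, a choice made after seeing the data, 28 members were higher and 3 lower over the 4 ages, at a median of 0.86 on the log2 scale, and 14 passed at week 8 and 25 at week 10. Scaling by library size alone raised the median of all genes tested to 0.26, and by that scaling 31 members were higher and 1 lower, with Ern1 still lower.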

How the data were processed

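Snap-frozen mammary tissue of 12 PyMT and 12 FVB mice, 3 of each per age, gave 24 directional libraries depleted of ribosomal RNA. Reads were cleared of adapters and mapped to mm9 with GSNAP, HTSeq then counted them for each gene, and the authors deposited these counts unnormalized in 1 table. The strand setting of the counting was not given in the sources used here. Total counts ran from 6969375 to 13516601. Counts of the 24 pairs of replicates differed by more than sampling noise (chi-square per gene 20.4 to 238), so none was counted as a duplicate.

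Symbols, mm9 coordinates and exon lengths came from GENCODE M1. A gene was tested if its CPM reached 1 in 12 or more of the 24 samples, which left 14918. Counts were scaled by TMM and tested by edgeR 4.0.16 (quasi-likelihood test, Benjamini-Hochberg adjustment over all genes tested) in R 4.3.3. Each age was fitted on its own 6 samples. The mean of the 4 ages and the contrasts of later with earlier ages came from 1 fit of 24 samples in 8 groups. The standard error is the absolute log2 fold change over the square root of F. Normalized counts are counts over DESeq2 1.42.0 size factors. The fits were also run on simulated counts in which few genes changed. This checks the code and not the scaling or error rates in these data. Alternatives were DESeq2, limma 3.58.1 voom with sample quality weights, RLE or library size scaling, no filter, a replicate block, a fold change above 2, a fit of all samples for single ages, and leaving out each library. Leaving out 2 libraries together, and the alternatives for members at single ages, were chosen after seeing the data. Copies of members in mm9 were sought with minimap2 2.31 for the 36 members with a transcript, and promoter windows are those of RefSeq. Python 3.11.15 and matplotlib 3.10.9 were used for summaries and figures.

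Members and lists were chosen with earlier results of these data known. Values in every sample are given for the members that passed over the 4 ages with the 3 highest and the 3 lowest log2 fold changes, and for Hspa5, Xbp1, Ddit3, Ero1l, Ero1lb and Creb3l2. From each other list up to 2 genes per direction with the largest change are named, except 1 that is not reported here. Vimp and Mzb1 were not matched, and Clgn and Ern2 did not pass the filter.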

Additional observations from a re-analysis of the deposited data

How the results depend on the processing

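The 30 members that passed over the 4 ages kept their direction and their side of the adjusted p of 0.05 in each alternative fit, except Atf6. Asking for a fold change above 2 as well left 12 of the 30 over the 4 ages, and left 13 (week 6), 16 (week 8), 13 (week 10) and 7 (week 12) of the 21, 20, 21 and 22 that passed at these ages. Leaving out 1 library gave 29 to 30 members over the 4 ages, 8 to 20 at week 6, 4 to 18 at week 8, 8 to 25 at week 10, 11 to 16 at week 12 and 0 in each contrast of ages, and moved the members relative to epithelial markers between -0.46 and -0.26. At week 6 the count was 8 without PyMT replicate 1, 9 without PyMT replicate 3 and 13 without FVB replicate 2. At week 8 it was 4 without FVB replicate 2, 10 without PyMT replicate 1, 11 without PyMT replicate 3 and 12 without FVB replicate 3. At week 10 it was 8 without PyMT replicate 1 or 2, 9 without PyMT replicate 3 and 10 without FVB replicate 1. At week 12 it was 11, 12 and 13 without PyMT replicates 2, 3 and 1 and 14 without FVB replicate 3. Fits at single ages with 2 mice in an arm have less power by construction.

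With a replicate block, 13 members passed at week 6 in place of 21, 15 at week 8 in place of 20, 17 at week 10 in place of 21, 16 at week 12 in place of 22 and 30 over the 4 ages, and Syvn1 was at -0.00675. Nothing in the labels says that a number marks a shared litter, batch or day, so the numbers were not taken as pairs. The deviations of same-numbered PyMT and FVB samples of an age had correlations of -0.03 to 0.18, above 0.1 in 4 of 12 pairs, against 0 of 24 pairs with different numbers, and not every sample correlated best with its own number. Whether some numbers mark a shared origin was not tested.

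Values near 0 changed sign, and the cause was not tested. Syvn1 over the 4 ages was at -0.014 in DESeq2 and with RLE, -0.0462 in voom, -0.058 without the 2 libraries with the most zeros, and -0.0552 to 0.073 without 1 library. Library size scaling, which raised the median of all genes, gave 0.032 for Atf6, 0.089 for Creb3l2, 0.093 for Ddit3 and 0.22 for Edem1 over the 4 ages, 0.040 for Atf6 and 0.16 for Creb3l2 at week 6, 0.18 for Ddit3 at week 10, and 0.16 for Creb3l2 and 0.050 for Ddit3 at week 12. Creb3l2 at week 10 was at -0.00138 in DESeq2, -0.00105 with RLE, -0.012 in the fit of 24 samples and -0.13 without the 2 libraries. In voom Ddit3 was at -0.0794 at week 8 and 0.025 at week 12, and Atf6 at -0.086 at week 10. Without the 2 libraries Ddit3 was at -0.27 at week 8 and 0.21 at week 10, and Atf6 at -0.067 at week 10. Without 1 library Creb3l2 ranged between -0.20 and 0.089 (week 6) and between -0.13 and 0.17 (week 10), Atf6 from -0.067 to 0.21 at week 10, and Ddit3 from -0.27 to 0.38 at week 8, -0.45 to 0.21 at week 10 and -0.48 to 0.095 at week 12.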
